A study of Homo sapiens with 2 samples.

Results

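Translation initiation and elongation factors were taken as the genes whose platform symbol starts with EIF1 to EIF6, EEF1 or EEF2, without the EIF2AK kinases and EEF1E1. That rule was met by 81 probes of 58 symbols in the authors' processed values. Of these, 77 probes of 55 genes had a detection p-value under 0.01 on at least 1 array, out of 9427 named genes that passed the same filter. The detection p-value is the share of negative control beads that were at least as bright as the probe. For 53 of the 55 genes a probe was detected on both arrays, and for the remaining 2 the difference is a bound. EIF4E, EIF4E1B and EIF5AL1 met the symbol rule but were not detected at that threshold on either array.

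The cells were MCF-10A, an established human line of non-tumorigenic mammary epithelium, given a small interfering RNA (siRNA) that targets SCTR, the gene of the secretin receptor, or a control siRNA without that target. Each group was 1 Illumina bead array, SCTR siRNA and negative control siRNA, and the labels name no other treatment, time or clone. Differences are on the log2 scale, with the level under SCTR siRNA minus the level under negative control siRNA, so a positive one means higher under SCTR siRNA. With 1 array in each group no spread between replicates could be measured, no test was made, and genes were counted by size alone.

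Translation starts when eIF2 brings the initiator tRNA to the small ribosomal subunit, where eIF1, eIF1A, eIF3 and eIF5 help to find the start codon. The cap-binding complex eIF4F, made of eIF4E, eIF4G and the helicase eIF4A, recruits that subunit to the messenger RNA, and eIF5B joins the large subunit. In elongation eEF1A delivers aminoacyl-tRNA, the eEF1B subunits recharge eEF1A with GTP, and eEF2 moves the ribosome by a codon. Cells of the mammary epithelium, like other cells, adjust these steps through phosphorylation of eIF2 and through mTOR, which acts on the eIF4E-binding proteins.

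Messenger RNAs of ribosomal proteins and of many translation factors begin with a C followed by an unbroken run of C and T, the terminal oligopyrimidine (TOP) motif, through which mTOR and LARP1 control them together. RefSeq start windows (GRCh38.p14) were searched for a C at the first annotated base followed by at least 4 bases that are each C or T, on the gene's own strand. A window matched 41 of the 53 genes, and 12 of these 41 (29.3%) had the run in at least 1 window. It was present in 40 of 55 ribosomal protein genes (72.7%), in 534 of 7097 other named genes (7.52%) and in 1429 of all 35116 windows (4.07%). The 12 windows are shown because they are the members with this shared start, each with 10 bases before and 15 bases from the annotated start. Capitals mark the run.
EIF2A, chr3:150546777-150546801, plus strand: cgagcggtttCTCTTTCCgggacaa
EIF2D, chr1:206612451-206612475, minus strand: ccagccgggcCCTTTTCgcggccgg
EIF2S3, chrX:24054946-24054970, plus strand: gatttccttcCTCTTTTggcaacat
EIF3D, chr22:36529152-36529176, minus strand: cgcatgtttcCTCTTTTCCTggttt
EIF3F, chr11:7987327-7987351, plus strand: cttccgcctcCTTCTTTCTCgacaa
EIF3K, chr19:38619178-38619202, plus strand: tttccaccacCTCTTCCTgttcccg
EIF3M, chr11:32583821-32583845, plus strand: gcccagttccCTTTTCCggtcggcg
EIF4A2, chr3:186783567-186783591, plus strand: gcgccgctgtCTTTTCagtcgggcg
EIF4B, chr12:53006446-53006470, plus strand: tcatccgggtCTTTTgcgttctctt
EEF1A1, chr6:73521018-73521042, minus strand: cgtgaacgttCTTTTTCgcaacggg
EEF1B2, chr2:206159885-206159909, plus strand: ctcttcgggtCCTTTTTCCTCTCTT
EEF2, chr19:3985449-3985473, minus strand: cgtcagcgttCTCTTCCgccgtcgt
Of the 29 members with a window and no run, 22 (75.9%) were within 1.5-fold between the arrays. The 3 of them shown for contrast were all at least 1.5-fold apart, so they are not typical of that group.
EIF2B1, chr12:123633672-123633696, minus strand: gtacggaagtgcgccggaagtgggg
EIF5B, chr2:99337379-99337403, plus strand: ctgagaactcacaccatatgtgtcc
EEF1G, chr11:62573877-62573901, minus strand: cgggcggcttactttgcggcagcgc
EEF1G has an A at the annotated first base, followed by C and T. A match describes these letters only, and the annotated start need not be the start used in these cells.

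The 2 arrays were alike in depth, with 15848 probes (33.5%) detected on the SCTR siRNA array and 15229 (32.2%) on the negative control siRNA array, and a median intensity of 124 and 122. Among the probes with 1 symbol in the authors' processed values, 0 carried the name SCTR. Those values hold only probes with a detection p-value under 0.05 on at least 1 array, and the other deposited probes were not searched for SCTR. The knockdown itself was therefore not checked, and directions rest on the labels. Of 13 markers listed for basal-type mammary epithelium, some of them shared by other epithelia, 6 were detected on both arrays. These were CDH1, CDH3, EPCAM, ITGB4, LAMB3 and EGFR, with a median difference of 1.40. The other 7, KRT5, KRT14 and TP63 among them, had no detected named probe. Probes without a symbol were left out, so those 7 are not shown to be absent from the cells. Of 7 luminal markers KRT8 and FOXA1 were detected on both arrays, with a median difference of 0.27, and GATA3 on 1 array only. Of 4 leukocyte markers CD14 alone was detected, at a log2 level of 13.70 on the SCTR siRNA array and 11.92 on the control array, of 5 fibroblast markers COL1A1 on 1 array only, and of 3 endothelial markers 0. Whether the cells' makeup plays a part in the values below was not tested.

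Most factor transcripts lay close to the same level on both arrays. Of 53 genes, 39 (73.6%) were within 1.5-fold, against 57.9% of all 8661 named genes detected on both arrays. On the SCTR siRNA array 9 genes (17.0%) were lower by 1.5-fold or more, against 22.6% of all named genes, and 5 (9.43%) were higher by as much, against 19.5%. By the 2-fold rule 4 genes (7.55%) were lower and 4 higher, against 8.44% and 9.74% of all named genes. None of the 4 shares was above the background. The median difference was -0.19 over the factor genes and -0.09 over all named genes, with 36 factor genes negative (67.9%) and 17 positive, against 4805 negative (55.5%) and 3852 positive among all named genes. Median scaling of the arrays in place of quantile normalization gave 40 negative and 13 positive. The 65 cytosolic ribosomal protein genes measured had a median of -0.55, of which 25 (38.5%) were lower and 0 higher by 1.5-fold or more.

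**Figure D1:**
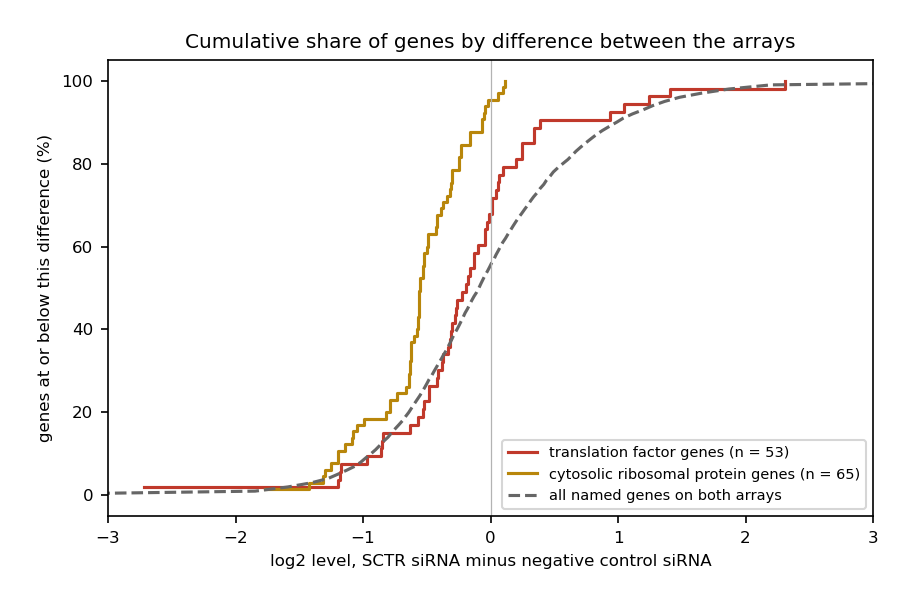
The cumulative share of genes (vertical axis, percent) is plotted against the log2 difference, SCTR siRNA minus negative control siRNA, for 53 translation factor genes, 65 cytosolic ribosomal protein genes and all named genes on both arrays (dashed). The factor curve is steeper around 0 than the dashed curve, with 73.6% of genes within 1.5-fold against 57.9%, and the ribosomal protein curve lies to the left of both around its median of -0.55.

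The 3 eIF2 subunit genes, the 5 genes of its exchange factor eIF2B, EIF2A and EIF2D were all lower under SCTR siRNA, where 55.5% of all named genes were negative. EIF2S2 (chr20:34088309-34112243), the beta subunit of eIF2, had a log2 level of 6.61 on the SCTR siRNA array and 7.78 on the control array, a difference of -1.17 (2.25-fold). Its signal was close to background, with intensities of 196.9 and 304.3 units on the SCTR siRNA and control arrays, and the difference shrank to -0.72 with uncorrected signals and to -0.68 in the authors' processed values. EIF2S1, the alpha subunit that stress kinases phosphorylate, was at 8.80 on the SCTR siRNA array and 9.22 on the control array (-0.42). EIF2S3, the gamma subunit that binds GTP and the tRNA, was at 12.06 and 12.16 (-0.10), so the genes of the 3 subunits of 1 complex spanned -1.17 to -0.10.

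The exchange factor eIF2B, which reloads eIF2 with GTP, had a median of -0.48 over its 5 genes. EIF2B1 (chr12:123620406-123633686), the alpha subunit that joins the complex into a dimer, stood apart from the other 4 with 8.97 on the SCTR siRNA array and 10.17 on the control array (-1.20, 2.30-fold). EIF2B2 (-0.48), EIF2B3 (-0.48), EIF2B4 (-0.26, second probe -0.20) and the catalytic subunit gene EIF2B5 (-0.19) were all within 1.5-fold. EIF2D (chr1:206569146-206612465), which can place tRNA on the ribosome without GTP, was at 9.72 on the SCTR siRNA array and 10.90 on the control array (-1.18, 2.26-fold). EIF2A, an alternative initiator tRNA carrier, was at 11.07 and 11.38 (-0.31). EIF2D and EIF2A both carry the pyrimidine run shown above, and their differences were -1.18 and -0.31.

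**Figure D2:**
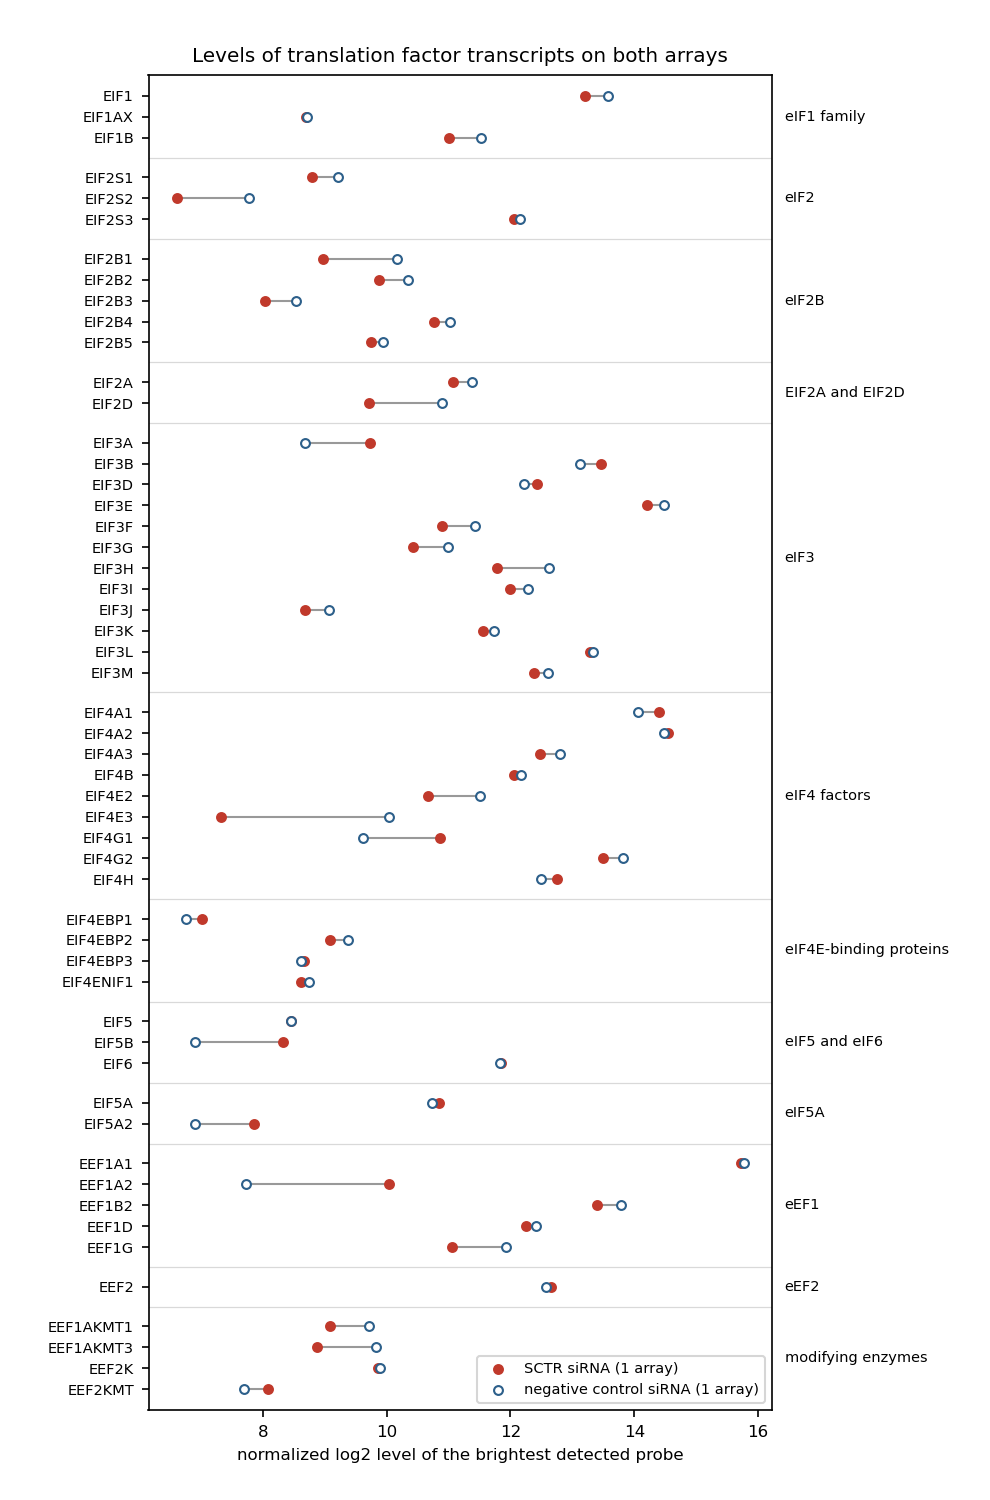
Normalized log2 levels of the brightest detected probe (horizontal axis) of 53 translation factor genes, grouped by complex, with filled points for the SCTR siRNA array and open points for the negative control siRNA array. The filled points lie left of the open ones for every eIF2, eIF2B, EIF2A and EIF2D gene, and far right of them for EIF3A, EIF4G1, EIF5B, EIF5A2 and EEF1A2.

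The start-codon factors of the eIF1 family stayed within 1.5-fold. EIF1, which guards start codon choice, was at 13.20 on the SCTR siRNA array and 13.57 on the control array (-0.37). Its close homologue EIF1B was at 11.00 and 11.53 (-0.53). EIF1AX, the gene of the scanning factor eIF1A, was at 8.70 and 8.72 (-0.01, second probe -0.40).

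The scaffold eIF3, the largest initiation factor, was measured through 12 of its genes on both arrays, with a median of -0.25. EIF3A (chr10:119033670-119080817), the subunit around which the complex is built, was higher on the SCTR siRNA array at 9.73 against 8.68 on the control array (1.05, 2.07-fold). EIF3H (chr8:116642130-116766374), a subunit with an MPN domain, was lower at 11.79 against 12.63 (-0.84, 1.79-fold). The other 10 were within 1.5-fold, and among them EIF3B (0.34) and EIF3D (0.20) were positive and 8 were negative, from EIF3G at -0.57 to EIF3L at -0.04. The 3 probes of EIF3B gave 0.33, 0.34 and 0.41, so this small difference was repeated by each probe, while those of EIF3M gave -0.22 and 0.05. EIF3C was detected on the SCTR siRNA array alone, where it was at least 1.16-fold higher, and its near-identical copy EIF3CL could share that signal.

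By position in eIF3, the core subunits that carry PCI or MPN domains (7 of 8 measured) had a median of -0.22 and the 5 other subunits one of -0.30. The core held both EIF3A and EIF3H, and its genes spanned -0.84 to 1.05. Those of the other 5 spanned -0.57 to 0.34. Both parts were therefore mixed in sign.

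Of the cap-binding and helicase factors, EIF4G1 was higher and both detected relatives of eIF4E were lower under SCTR siRNA. EIF4G1 (chr3:184314606-184335358), the scaffold of eIF4F that bridges the cap and the ribosome, was at 10.86 on the SCTR siRNA array and 9.62 on the control array (1.24, 2.36-fold). Its second probe gave 10.53 and 9.14 (1.39). EIF4G2, a relative of eIF4G that lacks the eIF4E-binding site, was at 13.49 and 13.82 (-0.33), with -0.47 and -0.42 by its other probes. The 2 related scaffolds thus differed in sign, each by all of its probes.

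EIF4E3 (chr3:71659363-71754773), a cap-binding relative of eIF4E, had the most negative difference of all 53 genes. Its level was 7.32 on the SCTR siRNA array and 10.04 on the control array (-2.72, 6.57-fold), from intensities of 260.0 and 1127.6 units, and the difference was -2.13 in the authors' processed values. A second EIF4E3 probe was detected on the control array only, where the bound was 4.21-fold higher after background correction, and its difference was -1.33 in the authors' processed values, which is smaller than that bound. EIF4E2 (chr2:232550689-232583644), a cap-binding protein that represses translation together with GIGYF2, was at 10.66 on the SCTR siRNA array and 11.51 on the control array (-0.85, 1.80-fold). The probe of EIF4E itself had detection p-values of 0.0104 on the SCTR siRNA array and 0.13 on the control array, so no level of the main cap-binding protein is given.

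The helicase genes were within 1.5-fold between the arrays. EIF4A1 was at 14.40 on the SCTR siRNA array and 14.06 on the control array (0.34, second probe 0.31), and EIF4A2 was at 14.55 and 14.48 (0.06). Under median scaling the brightest probe of EIF4A1 gave 0.10 and its second probe 0.27, and the sign of EIF4A2 turned. EIF4A3, an RNA helicase of the exon junction complex, was at 12.48 and 12.80 (-0.32), EIF4B at 12.05 and 12.17 (-0.13), and EIF4H, which like eIF4B stimulates the helicase, at 12.75 and 12.50 (0.25, second probe 0.08).

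The 4 inhibitors that bind eIF4E were within 1.5-fold, with a median of -0.04. EIF4EBP1 was at 7.01 on the SCTR siRNA array and 6.76 on the control array (0.25), EIF4EBP2 at 9.09 and 9.37 (-0.28), and EIF4EBP3 at 8.66 and 8.62 (0.04). EIF4ENIF1, which carries eIF4E into the nucleus, was at 8.62 and 8.74 (-0.13). The phosphorylation by which mTOR controls these proteins is not seen in transcript levels.

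**Figure D3:**
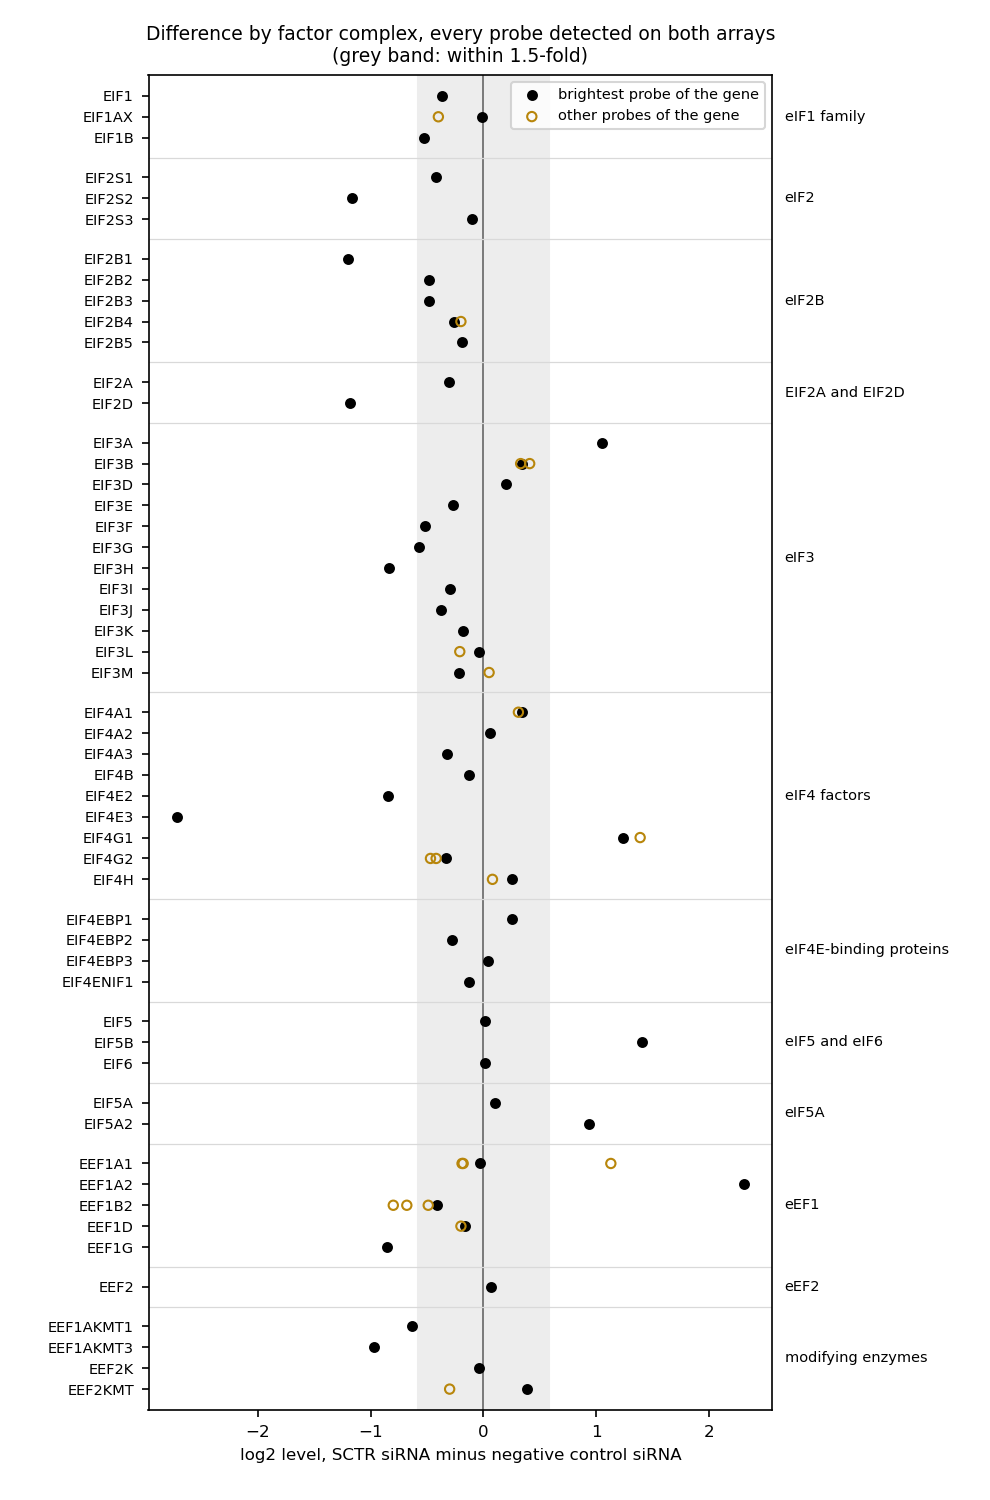
Log2 difference, SCTR siRNA minus negative control siRNA (horizontal axis), of every translation factor probe detected on both arrays, grouped by complex. Filled points are the brightest probe of each gene, open points its other probes, and the grey band marks differences within 1.5-fold; 14 filled points lie outside it, 9 to the left and 5 to the right, and an open point of EEF1A1 lies far from the other 3.

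Late initiation differed in EIF5B. EIF5B (chr2:99337389-99401326), the GTPase that joins the ribosomal subunits, was at 8.32 on the SCTR siRNA array and 6.91 on the control array (1.41, 2.65-fold), and at 0.95 in the authors' processed values. Its control signal was dim, at 205.7 units. EIF5, which triggers GTP hydrolysis by eIF2, was at 8.46 and 8.45 (0.01), and a second probe was detected on the SCTR siRNA array only, with a bound of 1.54-fold higher there after background correction and a smaller difference of 0.35 in the authors' processed values. EIF6, which keeps the large subunit from joining early, was at 11.85 and 11.83 (0.01), and its sign turned under median scaling.

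Among the elongation factors, EEF1A2 and EIF5A2 were at least 1.5-fold higher and EEF1G at least 1.5-fold lower under SCTR siRNA, while the probes of EEF1A1 disagreed. EEF2 was at 12.66 on the SCTR siRNA array and 12.58 on the control array (0.07, negative under median scaling). EEF1A1, the ubiquitous form of eEF1A, was at 15.73 and 15.77 (-0.03), but this probe stood at 97.9% of the highest intensity on the SCTR siRNA array and was the brightest (100%) on the control array. Whether the signal was saturated there was not tested. Of its other probes, 2 gave -0.18 and -0.19 (-0.35 and -0.37 under median scaling), and the remaining, far dimmer one gave 10.13 and 9.01 (1.13). EEF1A1 has many near-identical pseudogene copies, and which transcripts that probe reads is not known here.

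EEF1A2 (chr20:63488014-63499083), the form of eEF1A known from muscle and neurons, had the largest positive difference of the 53 genes. It was at 10.04 on the SCTR siRNA array and 7.73 on the control array (2.31, 4.95-fold), from intensities of 1161.1 and 297.4 units, and at 1.91 in the authors' processed values. EIF5A2 (chr3:170888418-170908637), the second form of the hypusine-bearing factor eIF5A that relieves ribosome stalls, was at 7.85 and 6.91 (0.94, 1.92-fold), and at 0.61 in the authors' processed values. EIF5A itself was at 10.85 and 10.74 (0.10). Both paralogues rest on 1 probe each.

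All exchange factor subunits of eEF1 had lower levels under SCTR siRNA, where 55.5% of all named genes were negative. By the brightest probes only EEF1G was past 1.5-fold. EEF1G (chr11:62559596-62573891), a structural subunit, was at 11.06 on the SCTR siRNA array and 11.92 on the control array (-0.86, 1.82-fold). EEF1B2, an exchange subunit, was at 13.39 and 13.79 (-0.41), and its 4 detected probes ranged from -0.80 to -0.41. Those at -0.80 and -0.68 were past 1.5-fold, so whether EEF1B2 passes that rule depends on the probe. EEF1D, the other exchange subunit, was at 12.25 and 12.42 (-0.16, second probe -0.20).

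Among enzymes that modify elongation factors, 2 lysine methyltransferases of eEF1A had lower levels under SCTR siRNA. EEF1AKMT3 was at 8.87 on the SCTR siRNA array and 9.83 on the control array (-0.97, 1.95-fold), and EEF1AKMT1 at 9.08 and 9.71 (-0.63, 1.55-fold), just past the 1.5-fold rule and inside it at -0.52 in the authors' processed values. EEF1AKMT2 was detected on the control array only, with a bound of 1.46-fold higher there after background correction and a smaller difference of -0.44 in the authors' processed values. EEF2K, the kinase that inhibits eEF2, was at 9.86 and 9.90 (-0.04), and the methyltransferase gene EEF2KMT was at 8.08 and 7.69 (0.39), with -0.30 by another probe.

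**Figure D4:**
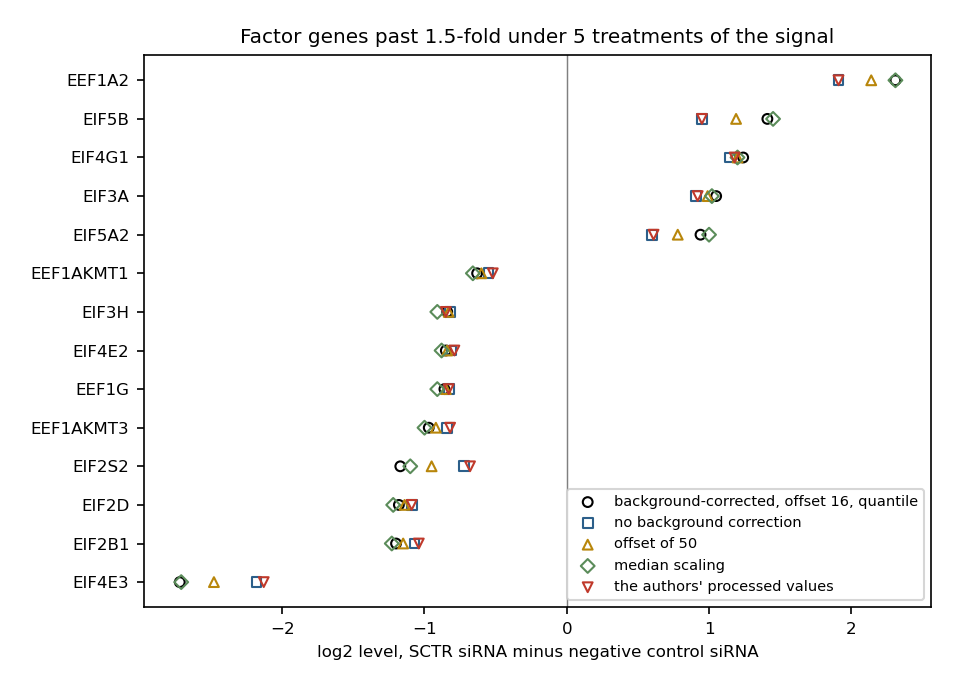
Log2 difference, SCTR siRNA minus negative control siRNA (horizontal axis), of the 14 factor genes at least 1.5-fold apart, under 5 treatments of the signal. Each gene stays on 1 side of 0. The values drawn nearest to 0 are those without background correction or in the authors' processed values. With background correction and in the authors' processed values, EIF4E3 spread furthest (-2.72 and -2.13), followed by EIF2S2 (-1.17 and -0.68) and EIF5B (1.41 and 0.95).

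Over all factors, 13 genes had 2 or more probes detected on both arrays. In 10 of them every probe had the same sign, and the median gap between the lowest and highest probe was 0.17. The probes of 2 genes, EEF1A1 and EEF2KMT, lay at least 1.5-fold apart. Of the 14 genes at least 1.5-fold apart between the arrays, EIF4G1 alone had a second probe detected on both arrays, so the other 13 rest on 1 probe each, with a 1-array probe besides for EIF4E3.

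Members with the pyrimidine run had a median of -0.16 over 12 genes, 11 of them (91.7%) within 1.5-fold, and EIF2D was the exception at -1.18. Among members without it 75.9%, and among other named genes with it 61.0%, were within 1.5-fold, and the difference between these shares was not tested. These groups also differed in brightness. The median log2 level was 12.22 for members with the run, 10.11 for members without it and 9.59 for other named genes with it. Whether level plays a part in the shares was not tested. The 29 members with a window and no run had a median of -0.26. Of them 4 (13.8%) were lower and 3 (10.3%) higher by 1.5-fold or more, against 22.6% and 19.5% of all named genes. Ribosomal protein genes had a median of -0.54 with the run (40 genes) and -0.56 without it (15 genes). Other named genes with the run had a median of -0.19 over 534 genes.

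**Figure D5:**
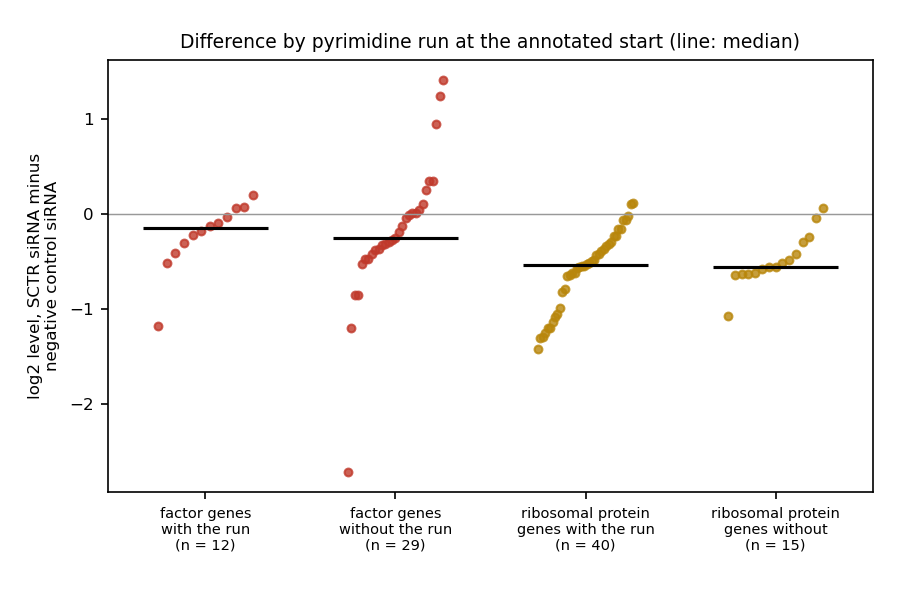
Log2 difference, SCTR siRNA minus negative control siRNA (vertical axis), of factor genes and ribosomal protein genes with and without a pyrimidine run at the annotated start, 1 point per gene and a line at each median. The 12 factor genes with the run centre on -0.16 and the 40 ribosomal protein genes with it on -0.54.

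Regulators of these factors were read from a companion list of 68 other translation genes, of which 54 were measured on both arrays, 6 lower (11.1%) and 7 higher (13.0%) by 1.5-fold or more, both below the shares of all named genes, with a median of -0.05. Among the kinases that phosphorylate eIF2, EIF2AK3 (PERK), the sensor in the endoplasmic reticulum, was at 9.44 on the SCTR siRNA array and 7.88 on the control array (1.56), and EIF2AK4 (GCN2), the amino acid sensor, at 10.17 and 8.87 (1.30). EIF2AK1 (-0.19, second probe -0.50), the haem-regulated kinase, and EIF2AK2 (-0.15), the sensor of double-stranded RNA, were within 1.5-fold. MTOR was at 9.65 and 8.34 (1.31) and the helicase gene DDX3X at 12.02 and 11.25 (0.76), while RPS6KB1, an S6 kinase downstream of mTOR, was at 9.17 and 9.90 (-0.73).

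The 4 measured genes of poly(A)-binding proteins and their partners were all lower by their brightest probe, where 55.5% of all named genes were negative. Their median was -0.48. PAIP1 was dim, at 6.44 on the SCTR siRNA array and 6.75 on the control array (-0.31, and -0.14 in the authors' processed values). PABPC4 was at 10.88 on the SCTR siRNA array and 11.52 on the control array (-0.63), and PABPC1, the main cytoplasmic form, at 12.93 and 13.26 (-0.33). PAIP2, an inhibitor of PABPC1, was at 12.14 and 12.90 (-0.75), but its second probe gave 0.79. The direction of PAIP2 thus depends on the probe.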

How the data were processed

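Expression was measured with Illumina bead arrays in MCF-10A cells, 1 array per group, from biotin-labelled cRNA made of total RNA, per the labels' protocols. The authors deposited an intensity and a detection p-value for 47323 probes per array, without normalization, and GenomeStudio 2011.1 is named in the submitters' processing notes. Of these, 7 probes had no signal. The processed table deposited by the authors holds log2 values of 16871 probes, whose 2 columns share 1 distribution (median 8.57) as quantile normalization gives. All 16871 probes had a detection p-value under 0.05 on at least 1 array. The alternative without a detection filter therefore still held only such probes. How the processed values were made is otherwise not given in the sources used here. Symbols came from the platform annotation, where 13060 probes had 1 symbol, 3 several and 3808 none, and all 55 member genes matched a RefSeq gene (GRCh38.p14), which gave coordinates. Probes with several symbols or none were left out.

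Background was removed with limma 3.58.1 under R 4.3.3 (normexp, offset 16, negative controls estimated through the detection p-values), followed by quantile normalization and the log2 transform. The brightest probe that passed a detection p of 0.01 on both arrays stood for its gene. Where a gene passed on 1 array only, its level there was compared with the dim probe's own level or, if higher, the lowest detected level (5.91 on the SCTR siRNA array, 6.04 on the control array). Members and lists were chosen with earlier results of these data known. Named were members at least 1.5-fold apart, the extremes and the value nearest 0 of each complex, members whose probes disagree, and companion genes at least 1.5-fold apart; other members were named for completeness with their values known. The steps were also tried on simulated data, in which only brighter detected probes were changed, by 2-fold or more. That trial does not cover dim probes, smaller differences or the spread between real replicates. Alternatives were the background correction, normalization, detection filter, probe rule, level minimum and fold rule. The number of arrays limits the precision.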

Additional observations from a re-analysis of the deposited data

How the results depend on the processing

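No paired analysis was possible because each group has 1 array and no result comes from a test. The median over factor genes stayed between -0.27 and -0.18 under the 10 alternatives tried, with that of all named genes between -0.10 and -0.05. The count of genes at least 1.5-fold lower was 9, and 7 to 10 under alternatives with that rule, and 4 genes were at least 2-fold lower. The count at least 1.5-fold higher was 5, and 2 among genes of mean log2 level 9 or more, where 3 of the 5 are too dim to enter. With that level minimum, medians by complex were -0.28 for eEF1 (-0.16 without it), -0.26 for eIF2 (-0.42), -0.37 for eIF2B (-0.48), -0.28 for the eIF4E-binding proteins (-0.04, 1 gene left), 0.10 for eIF5A (0.52, 1 gene left) and -0.63 for the modifying enzymes (-0.33). Without background correction and in the authors' processed values, eIF2B was at -0.37 and -0.35, and eIF5A at 0.35 and 0.36. The modifying enzymes were at -0.63 with no detection filter beyond that of the processed table and -0.54 with EEF1AKMT2 at its bound. The 14 genes past 1.5-fold gave 135 values under alternatives, all of the same sign, of which 22 moved by over 0.1, toward 0. Under median scaling EEF2, EIF4A2, EIF5 and EIF6 had the other sign, none of them further from 0 than 0.07, as had EIF1AX in the authors' processed values and EEF1A1 with all its probes averaged. Median scaling over detected probes was added after seeing the data. Dim probes limit EIF2S2, EIF5B and EIF5A2, whose size depends on the background correction. The 2 extremes depend on that correction as well. Without it EIF4E3 was at -2.18 (-2.72 with it) and EEF1A2 at 1.91 (2.31 with it). EIF2B1, EIF3A and EEF1AKMT3 moved by less.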

Other observations

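Other steps of protein synthesis in the companion list stayed mostly within 1.5-fold. The termination factor genes ETF1 (0.25) and GSPT1 (0.01) and the ribosome recycling gene ABCE1 (0.00, second probe 0.21) were near equal on the arrays. MCTS1, a reinitiation factor that works with DENR, was at 7.40 on the SCTR siRNA array and 8.40 on the control array (-1.00, and -0.69 in the authors' processed values), while the 2 probes of DENR gave -0.39 (the brighter one) and 2.08. Of 9 mitochondrial translation factor genes measured, MTIF3, an initiation factor, was at 9.90 on the SCTR siRNA array and 10.60 on the control array (-0.70), MTRF1L, a release factor, at 11.26 and 10.62 (0.64), and 7 were within 1.5-fold.

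The enzymes that build the modified residues of eIF5A and eEF2 were mixed in sign, with a median of -0.42 over 7 genes. DOHH, which completes hypusine on eIF5A, was at 7.46 on the SCTR siRNA array and 6.79 on the control array (0.67, and 0.41 in the authors' processed values), and DHPS, which starts it, was at 11.56 and 11.71 (-0.15). Of the genes for diphthamide on eEF2, DPH2 was at 10.28 and 9.68 (0.60) and the co-chaperone gene DNAJC24 at 6.81 and 7.65 (-0.84, and -0.49 in the authors' processed values). By their brightest probes DPH3, DPH5 and DPH6 ranged from -0.55 to -0.42. Other probes gave -0.53 and -0.34 for DPH3 and -0.64 for DPH5.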
